A study of Mus musculus with 18 samples.

Results

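The 10 genes described here encode the myosin heavy chains, myosin light chains and myosin-binding proteins of heart muscle: Myh6, Myh7, Myh7b, Myl1, Myl2, Myl3, Myl4, Myl7, Mybpc3 and Mybphl. They were chosen by name as chamber-specific and shared forms. They are 10 of 28563 genes in the tables, and all 10 were among the 16607 genes tested. Their RNA was measured by polyA RNA-seq of mouse heart ventricles at E14.5, in a study of the loss of Irx3 and Irx4, which encode Iroquois homeobox transcription factors.

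There were 18 libraries of 5 genotypes. DKO libraries, labelled Irx3KO_Irx4KO, carried replicate numbers 5, 7, 10, 2, 3 and 4. There were 3 Irx3KO libraries (1, 2 and 4), 3 Irx4KO libraries (2, 3 and 4), 3 double heterozygous libraries labelled Irx3het_Irx4het (2, 3 and 4, here dHet) and 3 wild-type libraries (WT 1, 2 and 3). The labels give no strain, sex, kind of allele or deleted part of either gene, and do not say whether a library came from 1 embryo or a pool. Whether libraries of a genotype came from different embryos is also not stated, and a p-value therefore refers to the scatter among these libraries, part of which may be technical.

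A myosin molecule of heart muscle has a pair of heavy chains, which carry the motor, and each heavy chain binds an essential and a regulatory light chain at its neck. In the mouse the atria mainly use the light chains Myl4 and Myl7, and the ventricles Myl3 and Myl2, while the ventricle of the embryo uses Myh7 and replaces it by Myh6 after birth. Myosin-binding protein C, from Mybpc3, binds the thick filament and tunes the motor, and Mybphl encodes a smaller relative found mainly in atria and conduction tissue.

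The libraries differ technically in a way not named in the labels and were treated as 2 sets. Set 1 holds DKO 5, 7 and 10 with WT 1, 2 and 3, and set 2 holds the other 12 libraries, so DKO was compared with WT in set 1 and with the other genotypes in set 2. Between the DKO libraries of set 1 and those of set 2, which carry the same label, edgeR called 3119 genes (18.8%), so levels are not set against each other across sets. Of the 10 myosin genes 5 were called there, with Myl2, Myl3, Myl4 and Myl7 higher (9.04% of all genes) and Myh7 lower (9.74%) in set 1. Irx3 was at 2.58 to 4.33 CPM (counts scaled so that libraries of different depth can be compared) in the 9 libraries labelled as homozygous Irx3 mutants and at 12.8 to 28.5 CPM in the other 9. Irx4 was at 216 to 282 CPM in the 9 libraries labelled as homozygous Irx4 mutants and at 78.7 to 190.8 CPM in the other 9, so its summed count was not low there and does not check the Irx4 labels. Library totals ran from 26721576 to 45946741 estimated counts, and each myosin gene was counted in every library.

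The promoters of Myl7 and Mybphl are printed because these genes had the largest differences between DKO and WT among the 10. Each stretch runs from 250 bases before the start of the gene to 50 bases after it, 5′ to 3′ on the strand of the gene, as RefSeq gives it for GRCm38.p6. The promoter of Myl7 is chr11:5898733-5899032 on the minus strand, and that of Mybphl is chr3:108364661-108364960 on the plus strand. Capitals mark a CArG box, the kind of sequence that SRF binds, in Myl7 and the GATA site AGATAA in Mybphl.
Myl7: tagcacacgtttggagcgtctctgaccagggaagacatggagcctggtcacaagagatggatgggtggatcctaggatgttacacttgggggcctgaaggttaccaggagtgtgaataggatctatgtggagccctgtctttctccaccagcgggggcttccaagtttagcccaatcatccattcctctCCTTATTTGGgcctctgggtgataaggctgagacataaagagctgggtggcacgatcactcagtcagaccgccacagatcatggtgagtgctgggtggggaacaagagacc
Mybphl: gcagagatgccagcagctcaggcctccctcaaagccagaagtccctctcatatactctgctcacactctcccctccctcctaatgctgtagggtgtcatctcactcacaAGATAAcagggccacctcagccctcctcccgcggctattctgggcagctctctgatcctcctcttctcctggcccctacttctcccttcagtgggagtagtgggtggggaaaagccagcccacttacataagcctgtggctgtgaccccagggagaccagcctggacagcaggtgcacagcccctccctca

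The motifs were searched on both strands: the Iroquois site ACANNTGT, the GATA site AGATAA, the T-box site AGGTGTGA, the E-box CANNTG, which every Iroquois site contains, the CArG box and the MEF2 site. The Myl7 CArG box begins at position -61 from the start, and the Mybphl GATA site at position -141. For 7 of the 10 genes the table has a promoter whose start lies within 50 bases of the main coding transcript's start: Myh6, Myh7, Myh7b, Myl3, Myl7, Mybpc3 and Mybphl. Among these, Myl3 also had a CArG box at -85, Myh7b a GATA site at -133 and Mybpc3 a MEF2 site at -90, while the letters of the Iroquois site and the T-box site were found in none of the 7 windows. Of all 32851 promoters in the table, 1.63% held the CArG box, 11.2% the GATA site, 3.19% the MEF2 site, 7.38% the Iroquois site, 1.28% the T-box site and 72.3% an E-box. Each of the 7 windows held at least 1 E-box. Only the form AGATAA of the GATA site was searched, and other forms were not. All matches are of letters and were not tested as binding sites.

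Myh6 and Myh7 lie next to each other on chromosome 14, both on the minus strand, at chr14:54941921-54966927 and chr14:54970684-54994626 of GRCm38 (GENCODE M21). Their coding sequences are 91.5% identical over 5805 aligned bases, and 32.3% of the 31-base words of Myh6 and 32.2% of those of Myh7 occur in the other gene's transcripts. The counting program splits reads from such stretches by estimate, so the separate levels of the pair are less certain than those of the other genes. The first 120 coding bases of each are printed as a stretch in which the pair can be told apart, with the 32 bases that differ in capitals.
Myh6: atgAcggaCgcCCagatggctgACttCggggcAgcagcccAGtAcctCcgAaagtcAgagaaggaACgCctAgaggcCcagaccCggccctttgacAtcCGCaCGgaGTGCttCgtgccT
Myh7: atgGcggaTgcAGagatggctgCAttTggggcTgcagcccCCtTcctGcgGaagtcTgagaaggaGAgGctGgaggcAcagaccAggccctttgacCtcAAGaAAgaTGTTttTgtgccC

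In TPM, which scale a count for transcript length as well as library total, the ventricular regulatory light chain Myl2 had the highest level of the 10 genes in every genotype, with means of 16116 TPM in DKO and 14945 TPM in WT of set 1. Myl3 followed with 3978 TPM in DKO and 4051 TPM in WT, then Myl4 with 3356 TPM in DKO and 2628 TPM in WT. In DKO of set 1 the libraries of Myl3 and Myl4 overlapped, and Myl7 came next with a mean of 2270.4 TPM, above Myh7 with 1308 TPM. In WT the means stood the other way round, at 1484 TPM for Myh7 and 1238 TPM for Myl7, but the libraries of the pair overlapped. Below these came Mybpc3 (799 TPM in DKO and 823 TPM in WT), Myh6 (603 TPM in DKO and 422 TPM in WT) and Myh7b (97.9 TPM in DKO and 116 TPM in WT). The lowest were Myl1 (26.9 TPM in DKO and 41.9 TPM in WT) and Mybphl (15.9 TPM in DKO and 6.64 TPM in WT), and these 2 overlapped in DKO of set 1.

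In set 2 the means of Myl2 were 12967 TPM in DKO, 13173 TPM in Irx3KO, 13538 TPM in Irx4KO and 14088 TPM in dHet, and the next places again went to Myl3 and Myl4. Myl7 was below Myh7 in all 4 genotypes of set 2, with means of 1718 TPM for Myl7 and 1922 TPM for Myh7 in DKO, where the libraries of the pair overlapped, and of 1157 TPM for Myl7 and 2237 TPM for Myh7 in dHet, where they did not. Together the 10 genes held 2.82% to 2.93% of all TPM in DKO of set 1, against 2.55% to 2.62% in WT, and 2.38% to 2.61% in the libraries of set 2.

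**Figure D1:**
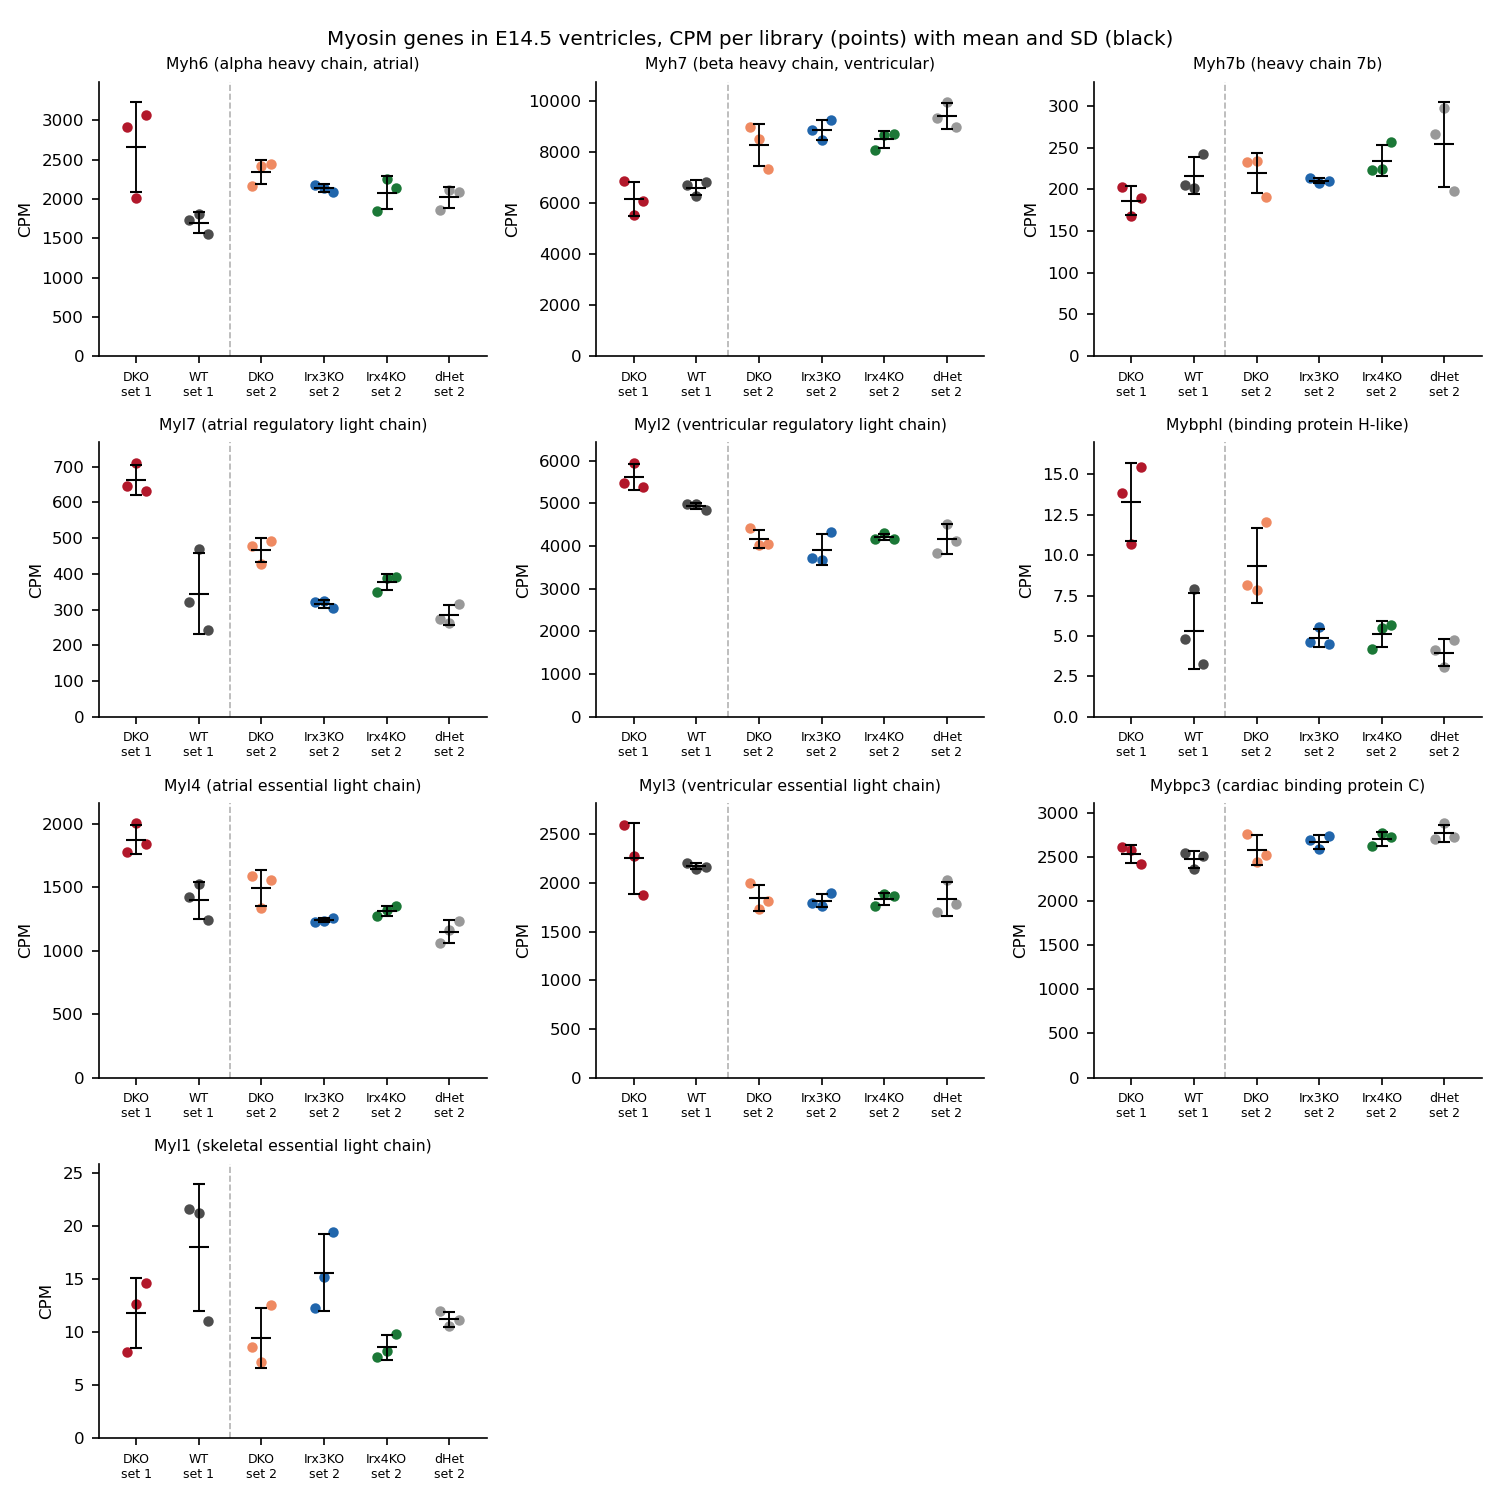
Level of each of the 10 myosin genes in CPM, 1 panel per gene, with 1 point per library and the mean and SD of each genotype and set in black, DKO left of the group it was compared with. In set 1 the DKO points of Myh6, Myl2, Myl4, Myl7 and Mybphl lie above every WT point, and in set 2 those of Myl7 and Mybphl lie above every point of the other genotypes.

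In DKO against WT, 4 of the 10 genes passed the test, all higher in DKO: the 3 atrial genes Myl7, Mybphl and Myl4, and Myh6. No gene of the 10 was called lower. Of all genes tested, 1.44% were called in either direction, 0.644% higher and 0.795% lower. The median log2 fold change was 0.12 over the 10 genes and 0.01 over all genes tested. In 5 of the 10 genes every DKO library was above every WT library, as in 7.97% of all genes, and in none was every DKO library below every WT library, as in 7.04% of all genes. In RNA of a whole ventricle, a change in the number of cells of a type and a change in RNA per cell cannot be told apart.

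Myl7 encodes the atrial regulatory light chain. Its level was 644, 711 and 631 CPM in DKO 5, 7 and 10, against 321, 469 and 244 CPM in WT 1, 2 and 3. Every DKO library was above the highest WT library, and the WT libraries were spread more widely. The log2 fold change was 0.94 ± 0.16 (SE, n = 3 each; edgeR quasi-likelihood test, adjusted p = 0.0091).

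Mybphl, the relative of myosin-binding protein C, was at a low level: 13.8, 10.7 and 15.4 CPM in DKO 5, 7 and 10, against 4.79, 7.90 and 3.29 CPM in WT 1, 2 and 3. All 3 DKO libraries were above all 3 WT libraries, and WT 2 was the highest WT library for Mybphl as it was for Myl7. The log2 fold change was 1.32 ± 0.26 (SE, n = 3 each; edgeR adjusted p = 0.019), the largest of the 10.

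Myl4, the atrial essential light chain, which the ventricle of the mouse embryo also makes, was at 1779.8, 2003 and 1842 CPM in DKO and at 1422, 1528 and 1239 CPM in WT. The groups did not overlap. The log2 fold change was 0.43 ± 0.082 (SE, n = 3 each; edgeR adjusted p = 0.016).

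Myh6, the alpha heavy chain, was at 2917, 2012 and 3069 CPM in DKO and at 1729, 1809.9 and 1553 CPM in WT. DKO 7 was lower than the other 2 DKO libraries but above WT 2, the highest WT library. The log2 fold change was 0.65 ± 0.12 (SE, n = 3 each; edgeR adjusted p = 0.012). Its main coding transcript, Myh6-201, held 93.8% of the TPM of the gene in DKO and 89.4% in WT.

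These 4 calls rest on the spread shared by all 18 libraries and on particular WT libraries. WT 3, the lowest library for all 4 genes, had almost no Y-linked RNA, at 0.88 CPM. The rest of set 1 had 208 to 301 CPM, so this signal was not balanced between DKO and WT. In set 2 it was also low in DKO 4 (1.10 CPM) and dHet 2 (1.42 CPM). With a covariate for Y-linked genes the count of myosin genes called in DKO against WT stayed within 1.5 times the main count, and 185 genes were called in all. DESeq2, also on all 18 libraries, called the same 4 myosin genes, among 4.12% of all genes. With the 6 libraries of set 1 alone, none of the 4 passed, with adjusted p = 0.21 for Myl7, 0.2 for Mybphl, 0.24 for Myl4 and 0.23 for Myh6, and 0.101% of all genes were called. Without WT 1 none passed (adjusted p = 0.051 for Myl7, 0.092 for Mybphl, 0.054 for Myl4 and 0.052 for Myh6; 0.398% of all genes called), and without WT 3 only Myl7 did, with adjusted p = 0.011 (0.737% of all genes called).

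The ventricular and shared forms did not pass the test. Myl2 was at 5482, 5956 and 5389 CPM in DKO and at 4988, 4979.8 and 4852 CPM in WT, with every DKO library above every WT library. Its log2 fold change was 0.18 ± 0.072 (SE, n = 3 each; edgeR adjusted p = 0.26). Myl3, the ventricular essential light chain, was at 2598, 2281 and 1878 CPM in DKO and at 2207, 2141 and 2169.6 CPM in WT. The WT libraries lay inside the range of the DKO libraries, and the log2 fold change was 0.05 ± 0.094 (adjusted p = 0.87).

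Myh7, the beta heavy chain of the embryonic ventricle, was at 6862, 5540.4 and 6088 CPM in DKO and at 6691, 6296 and 6844 CPM in WT. The groups overlapped, and the log2 fold change was -0.10 ± 0.081 (SE, n = 3 each; edgeR adjusted p = 0.63). With no set term the values of Myh7, Myl2 and Myl3 turned to 0.13, -0.02 and -0.08, also not called. Mybpc3, which encodes cardiac myosin-binding protein C, was at 2609.8, 2579 and 2417 CPM in DKO and at 2548, 2369 and 2507 CPM in WT, again overlapping, with a log2 fold change of 0.03 ± 0.058 (adjusted p = 0.85). Myh7b encodes a heavy chain related to Myh7. Its level was 202, 168 and 189 CPM in DKO and 205, 202 and 242 CPM in WT, and DKO 5 was level with WT 2. The log2 fold change was -0.21 ± 0.12 (adjusted p = 0.47). Over all libraries 52.23% of the Myh7b TPM fell on Myh7b-203, a transcript of 674 bases annotated with a retained intron, and 36.39% on the coding transcript Myh7b-201 of 6163 bases.

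Myl1, an essential light chain of fast skeletal muscle that early heart muscle also makes, was at 8.17, 12.6 and 14.6 CPM in DKO and at 21.6, 21.2 and 11.1 CPM in WT. WT 3 lay inside the range of the DKO libraries, and the log2 fold change was -0.61 ± 0.27 (SE, n = 3 each; edgeR adjusted p = 0.32). A share of 38.7% of the 31-base words of Myl1 also occurs in Mylf-ps, a pseudogene, so its count is uncertain.

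**Figure D2:**
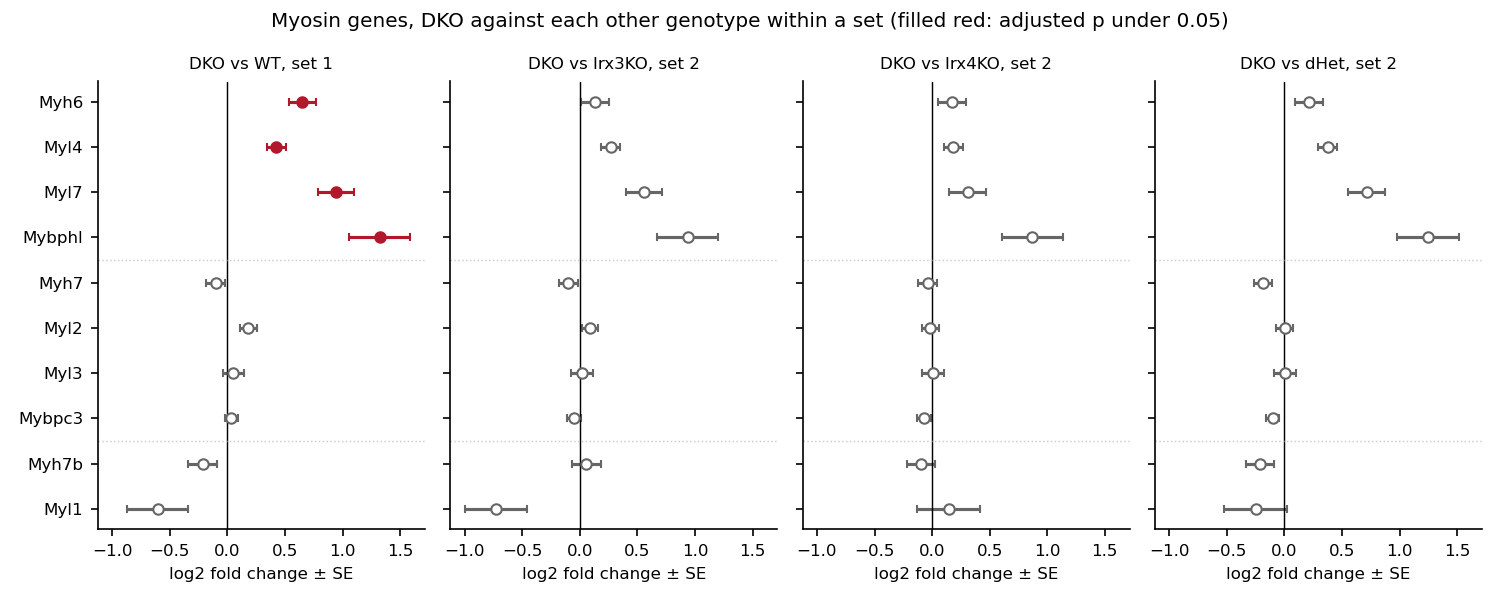
Log2 fold change of the 10 myosin genes in each comparison, with bars of 1 standard error from the edgeR fit, and filled points where the adjusted p was under 0.05. The 4 filled points are Mybphl, Myl7, Myh6 and Myl4 in DKO against WT. The points of Mybphl, Myl7, Myl4, Myh6 and Myl3 lie above 0 in every comparison of DKO, those of Myl3 by less than their standard error.

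In set 2 the means of the atrial genes were highest in DKO, whose fragments were also shorter. The estimated mean fragment length was 223 to 232 bases in the DKO libraries, against 236 to 268 bases in the other libraries of set 2. The part of fragment length in the CPM values was not tested. Myl7 was at 478, 427 and 490.4 CPM in DKO 2, 3 and 4, against 321, 324 and 304 CPM in Irx3KO 1, 2 and 4, 350.3, 388 and 389.9 CPM in Irx4KO 2, 3 and 4, and 273, 262 and 315 CPM in dHet 2, 3 and 4. The 3 DKO libraries were above all 9 others, the Irx4KO libraries were above all Irx3KO and dHet libraries, and Irx3KO overlapped dHet. Mybphl was at 8.18, 7.82 and 12.04 CPM in DKO, against 4.65, 5.52 and 4.47 CPM in Irx3KO, 4.17, 5.50 and 5.67 CPM in Irx4KO, and 4.11, 3.07 and 4.72 CPM in dHet. Every DKO library was again above all 9 others, which overlapped among themselves. The share of all genes with DKO above all 9 others, or with Irx4KO above both Irx3KO and dHet, was not computed.

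Myl4 was at 1586, 1334 and 1559 CPM in DKO, against 1225, 1236 and 1258 CPM in Irx3KO, 1269.6, 1324 and 1349.5 CPM in Irx4KO, and 1058, 1162 and 1232 CPM in dHet. DKO 3 lay inside the range of the Irx4KO libraries, and every DKO library was above every Irx3KO and dHet library. Myh6 was at 2168, 2419.7 and 2443 CPM in DKO, against 2183, 2145 and 2092 CPM in Irx3KO, 1849, 2253 and 2139.7 CPM in Irx4KO, and 1866, 2111 and 2083 CPM in dHet. Only against dHet were the DKO libraries of Myh6 free of overlap.

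None of the 10 genes passed the edgeR test in DKO against Irx3KO, where 0.379% of all genes were called, in DKO against Irx4KO (0.0241%) or in DKO against dHet (0.0903%). At an unadjusted p under 0.05 there were 4 of the 10 against Irx3KO (7.91% of all genes), 2 against Irx4KO (5.78%) and 4 against dHet (9.81%). DESeq2 called 2 against Irx3KO (1.35% of all genes), 0 against Irx4KO and 3 against dHet (1.05% of all genes). These 3 comparisons share the same DKO libraries and are not independent of each other.

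Against Irx3KO, the log2 fold change in DKO was 0.94 ± 0.26 for Mybphl (SE, n = 3 each; edgeR adjusted p = 0.20), 0.56 ± 0.16 for Myl7 (adjusted p = 0.21) and 0.27 ± 0.082 for Myl4 (adjusted p = 0.25). These 3 genes did not overlap between the groups and were higher in DKO, as 9.03% of all genes were, and in none of the 10 was every DKO library lower, as in 8.41%. With the 12 libraries of set 2 alone, Myl7 and Mybphl passed, with adjusted p = 0.0034 and 0.045, among 1.1% of all genes, and in DESeq2 with adjusted p = 0.035 and 0.04. With counts rebuilt from TPM neither passed in edgeR. The log2 fold changes were then 0.48 for Myl7 (adjusted p = 0.40) and 0.92 for Mybphl (adjusted p = 0.28).

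Against Irx4KO, the log2 fold change was 0.87 ± 0.26 for Mybphl (SE, n = 3 each; edgeR adjusted p = 0.72), 0.31 ± 0.16 for Myl7 (adjusted p = 0.90) and 0.18 ± 0.082 for Myl4 (adjusted p = 0.85). Mybphl and Myl7 did not overlap between the groups and were higher in DKO, as 7.36% of all genes were, and in none of the 10 was every DKO library lower, as in 7.59%. No gene of the 10 passed with set 2 alone, where 0.0246% of all genes did.

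Against dHet, the log2 fold change was 1.24 ± 0.27 for Mybphl (SE, n = 3 each; edgeR adjusted p = 0.11), 0.71 ± 0.16 for Myl7 (adjusted p = 0.12), 0.38 ± 0.082 for Myl4 (adjusted p = 0.11) and 0.21 ± 0.12 for Myh6 (adjusted p = 0.58). All 4 were higher in every DKO library than in every dHet library, as 8.07% of all genes were. With set 2 alone Mybphl, Myl7 and Myl4 passed, with adjusted p = 0.014, 0.00099 and 0.022, among 1.06% of all genes, and in DESeq2 with adjusted p = 0.0021, 0.0022 and 0.0058. With counts rebuilt from TPM none of the myosin genes passed in edgeR.

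Myh7 was at 8971, 8519 and 7355 CPM in DKO of set 2, against 8867, 8489.6 and 9251 CPM in Irx3KO, 8099.8, 8670.1 and 8728 CPM in Irx4KO, and 9327, 9973 and 8980.3 CPM in dHet. It was the one gene of the 10 with every DKO library below every dHet library, as 7.95% of all genes were, and its log2 fold change was -0.19 ± 0.081 (SE, n = 3 each; edgeR adjusted p = 0.46). Myl1 was at 8.59, 7.18 and 12.6 CPM in DKO, against 12.2, 15.2 and 19.4 CPM in Irx3KO, 7.64, 8.21 and 9.83 CPM in Irx4KO, and 11.96, 10.6 and 11.1 CPM in dHet. DKO 4 overlapped Irx3KO, and the log2 fold change of DKO against Irx3KO was -0.73 ± 0.27 (adjusted p = 0.44).

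The other genes overlapped in all 3 comparisons of DKO in set 2. Myl2 was at 4417, 4033 and 4041 CPM in DKO, against 3732, 3682 and 4340.5 CPM in Irx3KO, 4155, 4301 and 4177 CPM in Irx4KO, and 3829.8, 4528 and 4109 CPM in dHet. Myl3 was at 1996, 1733 and 1811 CPM in DKO, against 1796, 1764 and 1899 CPM in Irx3KO, 1761, 1882 and 1863 CPM in Irx4KO, and 1697, 2035 and 1787 CPM in dHet. For both ventricular light chains every genotype of set 2 overlapped DKO. Mybpc3 was at 2764, 2447 and 2523 CPM in DKO, against 2689, 2586 and 2733 CPM in Irx3KO, 2622, 2772 and 2725 CPM in Irx4KO, and 2699.6, 2881 and 2730.0 CPM in dHet. Myh7b was at 233, 233 and 191 CPM in DKO, against 214, 207 and 210.3 CPM in Irx3KO, 223, 224 and 256 CPM in Irx4KO, and 266, 298 and 198 CPM in dHet.

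Between the single knockouts and the double heterozygotes none of the 10 genes was called by edgeR or DESeq2. In Irx3KO against dHet edgeR called 0.00602% of all genes, and 4.38% had an unadjusted p under 0.05. The 1 of the 10 that did was Myh7b, with a log2 fold change of -0.27 ± 0.12 (SE, n = 3 each). Every Irx3KO library was above every dHet library for Myl1, as in 5.86% of all genes, and below it for none of the 10, as in 5.7%. In Irx4KO against dHet it called 0.012% of all genes, 5.61% had an unadjusted p under 0.05, and the 2 of the 10 that did were Myl7, with a log2 fold change of 0.41 ± 0.16 (SE, n = 3 each; adjusted p = 0.78), and Myl4, with 0.19 ± 0.082 (adjusted p = 0.84). These 2 genes were higher in every Irx4KO library than in every dHet library, as 7.26% of all genes were, and Myh7 and Myl1 were lower, as 6.86% were. In Irx3KO against Irx4KO it called 0.289% of all genes, 8.62% had an unadjusted p under 0.05, and the 1 of the 10 that did was Myl1, with a log2 fold change of 0.87 ± 0.27 (adjusted p = 0.28). Myl1 was higher in every Irx3KO library than in every Irx4KO library, as 11% of all genes were, and Myh7b, Myl4 and Myl7 were lower, as 11.8% were.

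Within set 2 the 6 libraries labelled as homozygous Irx4 mutants, DKO and Irx4KO, were set against the 6 others, Irx3KO and dHet. Myl7 had a lowest, median and highest level of 350.3, 409 and 490.4 CPM in the homozygous Irx4 mutants, against 262, 310 and 324 CPM in the others. Myl4 had 1269.6, 1342 and 1586 CPM in the homozygous Irx4 mutants, against 1058, 1229 and 1258 CPM in the others. In both genes every homozygous Irx4 mutant library was above every other library, as in 0.867% of all genes, and in none of the 10 was every one below, as in 1.01%. The log2 difference was 0.48 ± 0.11 for Myl7 (SE, n = 6 each; edgeR adjusted p = 0.062) and 0.23 ± 0.058 for Myl4 (adjusted p = 0.082), so neither was called, while 0.813% of all genes were in either direction and 0.403% as higher.

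Mybphl had a lowest, median and highest level of 4.17, 6.75 and 12.04 CPM in the homozygous Irx4 mutants, against 3.07, 4.56 and 5.52 CPM in the others, and overlapped. Its log2 difference was 0.65 ± 0.19 (SE, n = 6 each; edgeR adjusted p = 0.15). An unadjusted p under 0.05 was found in 5 of the 10 genes and in 10.6% of all genes, and DESeq2 called 3, Myl7, Myl4 and Mybphl, with adjusted p = 0.0019, 0.016 and 0.036, among 2.06% of all genes. With set 2 alone edgeR called the same 3 genes, with adjusted p = 0.00037, 0.026 and 0.034, among 2.14% of all genes. With counts rebuilt from TPM it called none of the myosin genes.

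The 6 libraries labelled as homozygous Irx3 mutants, DKO and Irx3KO, were set against the 6 others, Irx4KO and dHet. Myl7 had a lowest, median and highest level of 304, 376 and 490.4 CPM in the homozygous Irx3 mutants, against 262, 333 and 389.9 CPM in the others. The log2 difference was 0.23 for Myl7 (edgeR adjusted p = 0.68), 0.15 for Myl4 (adjusted p = 0.64) and 0.59 for Mybphl (adjusted p = 0.55). None of the 10 was called by edgeR or DESeq2, and edgeR called 0.0241% of all genes. An unadjusted p under 0.05 was found in 2 of the 10 and in 7.39% of all genes. The Irx3 difference less the Irx4 difference is the contrast of Irx3KO with Irx4KO, which was -0.25 ± 0.16 for Myl7 on the log2 scale (SE, n = 3 each; edgeR adjusted p = 0.76) and passed for none of the 10 genes.

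For the light and heavy chains the ratio of the atrial to the ventricular form was taken per library from TPM. Mybphl was set against Mybpc3, which is a shared and not a ventricular form. The ratio of Myl7 to Myl2 was 0.140, 0.144 and 0.139 in DKO 5, 7 and 10, against 0.0769, 0.112 and 0.0599 in WT 1, 2 and 3. Mybphl to Mybpc3 was 0.0198, 0.0157 and 0.0239 in DKO, against 0.00709, 0.0125 and 0.00494 in WT. In both ratios every DKO library was above every WT library. Myh6 to Myh7 was 0.444, 0.393 and 0.536 in DKO, against 0.285, 0.319 and 0.253 in WT, again with no overlap. Myl4 to Myl3 was 0.695, 0.896 and 0.976 in DKO, against 0.651, 0.717 and 0.582 in WT, and DKO 5 lay below WT 2.

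The log2 difference in the ratio, DKO less WT, was 0.81 for Myl7 to Myl2, 1.36 for Mybphl to Mybpc3 and 0.68 for Myh6 to Myh7. Each had a two-sided exact permutation p of 0.1, the smallest that 3 against 3 libraries can give, and an adjusted p of 0.16 over 36 tests of ratios. For Myl4 to Myl3 the difference was 0.39 with an exact permutation p of 0.2. As a share, Myl7 was 12.3% of the summed TPM of Myl7 and Myl2 in DKO and 7.62% in WT. Myh6 was 31.3% ± 3.39 of the summed TPM of Myh6 and Myh7 in DKO and 22.2% ± 2.02 in WT (SD, n = 3 each).

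In set 2 the ratio of Myl7 to Myl2 was 0.129, 0.125 and 0.144 in DKO, against 0.103, 0.105 and 0.0838 in Irx3KO, 0.101, 0.108 and 0.111 in Irx4KO, and 0.0859, 0.0691 and 0.0923 in dHet. Myl4 to Myl3 was 0.797, 0.773 and 0.861 in DKO, against 0.679, 0.693 and 0.664 in Irx3KO, 0.721, 0.702 and 0.720 in Irx4KO, and 0.622, 0.569 and 0.692 in dHet. For both light chain ratios the DKO libraries were above all 9 others. Mybphl to Mybpc3 was 0.0111, 0.0120 and 0.0179 in DKO, against 0.00661, 0.00815 and 0.00624 in Irx3KO, 0.00609, 0.00754 and 0.00785 in Irx4KO, and 0.00587, 0.00405 and 0.00664 in dHet, and the DKO libraries were above all others here too. Myh6 to Myh7 was 0.280, 0.318 and 0.367 in DKO, against 0.298, 0.300 and 0.269 in Irx3KO, 0.271, 0.295 and 0.283 in Irx4KO, and 0.249, 0.249 and 0.274 in dHet, and DKO overlapped the single knockouts.

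The log2 difference of Myl7 to Myl2 in DKO was 0.45 against Irx3KO, 0.31 against Irx4KO and 0.69 against dHet. For Myl4 to Myl3 it was 0.25 against Irx3KO, 0.18 against Irx4KO and 0.37 against dHet, and for Mybphl to Mybpc3 it was 0.94 against Irx3KO, 0.91 against Irx4KO and 1.30 against dHet. Each of these had an exact permutation p of 0.1, the smallest possible.

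With 6 libraries a group in set 2, Myl4 to Myl3 had a lowest, median and highest ratio of 0.702, 0.747 and 0.861 in the homozygous Irx4 mutants, against 0.569, 0.672 and 0.693 in the others. The groups did not overlap, the log2 difference was 0.22, and the exact permutation p of 0.0022 was the smallest possible (adjusted p = 0.078). For Myl7 to Myl2 the log2 difference was 0.41 with overlap (exact permutation p = 0.0065, adjusted p = 0.12), for Mybphl to Mybpc3 0.67 (exact permutation p = 0.032, adjusted p = 0.16) and for Myh6 to Myh7 0.14 (exact permutation p = 0.1, adjusted p = 0.16). None passed after adjustment. Between the homozygous Irx3 mutants and the others the log2 difference was 0.28 for Myl7 to Myl2 (exact permutation p = 0.1) and 0.15 for Myl4 to Myl3 (exact permutation p = 0.11). For Mybphl to Mybpc3 it was 0.64 (exact permutation p = 0.043) and for Myh6 to Myh7 0.17 (exact permutation p = 0.048). Each had an adjusted p of 0.16 in the exact permutation test.

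**Figure D3:**
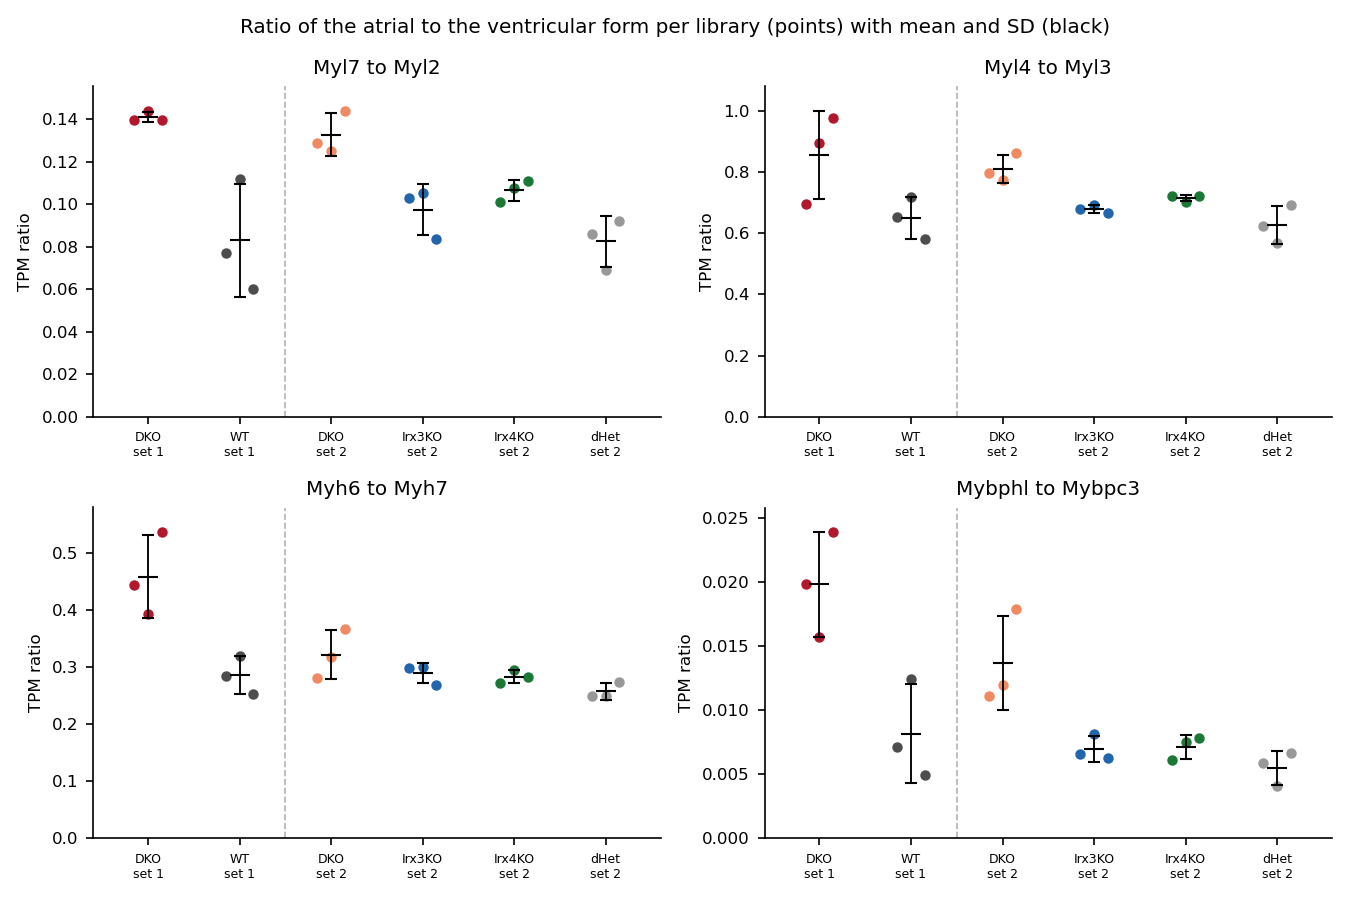
TPM ratio of the atrial to the ventricular form of the light and heavy chains, and of Mybphl to Mybpc3, which is not a ventricular form. Each panel has 1 point per library with the mean and SD of each genotype and set in black, DKO left of the group it was compared with. DKO points lie above all others of their set for Myl7 to Myl2 and Mybphl to Mybpc3, while for Myl4 to Myl3 DKO 5 lies below WT 2 and for Myh6 to Myh7 the DKO points of set 2 overlap those of the single knockouts.

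The genes whose levels followed Myl7 most closely were found over the 18 libraries, on log2 CPM with the mean of each set taken off, among 11251 genes with a mean of at least 5 CPM. The points share libraries, depth and genotype, and the values are a description without a test. Myl4 came first with Pearson r = 0.953 and Spearman rho = 0.936, and Mybphl second with r = 0.934 and rho = 0.930. Without the 2 libraries farthest from the median of Myl7, r was 0.927 for Myl4 and 0.944 for Mybphl. Within set 1 r was 0.978 for Myl4 and 0.954 for Mybphl, and within set 2 it was 0.936 for Myl4 and 0.916 for Mybphl.

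The next 3 genes were Tbcel, with r = 0.895, rho = 0.922 and r = 0.914 without those 2 libraries, Bmp2, with r = 0.875, rho = 0.922 and r = 0.869, and Kcnh7, with r = 0.864, rho = 0.886 and r = 0.883. Bmp2 encodes a secreted signal of the bone morphogenetic protein family, and Kcnh7 a voltage-gated potassium channel. Of the other myosin genes Myh6 ranked 222 (r = 0.72), Myl2 ranked 1347 (r = 0.499) and Myl3 ranked 5165 (r = 0.10). Mybpc3 ranked 8210 (r = -0.20), Myl1 9262 (r = -0.33), Myh7b 10651 (r = -0.56) and Myh7 10905 (r = -0.63), so that the ventricular heavy chain lay near the far end of the order from its atrial light chain. Among the remaining pairs, Myh7 and Myh7b had r = 0.72, Myh6 and Mybphl r = 0.82, and the neighbours Myh6 and Myh7 r = -0.20.

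**Figure D4:**
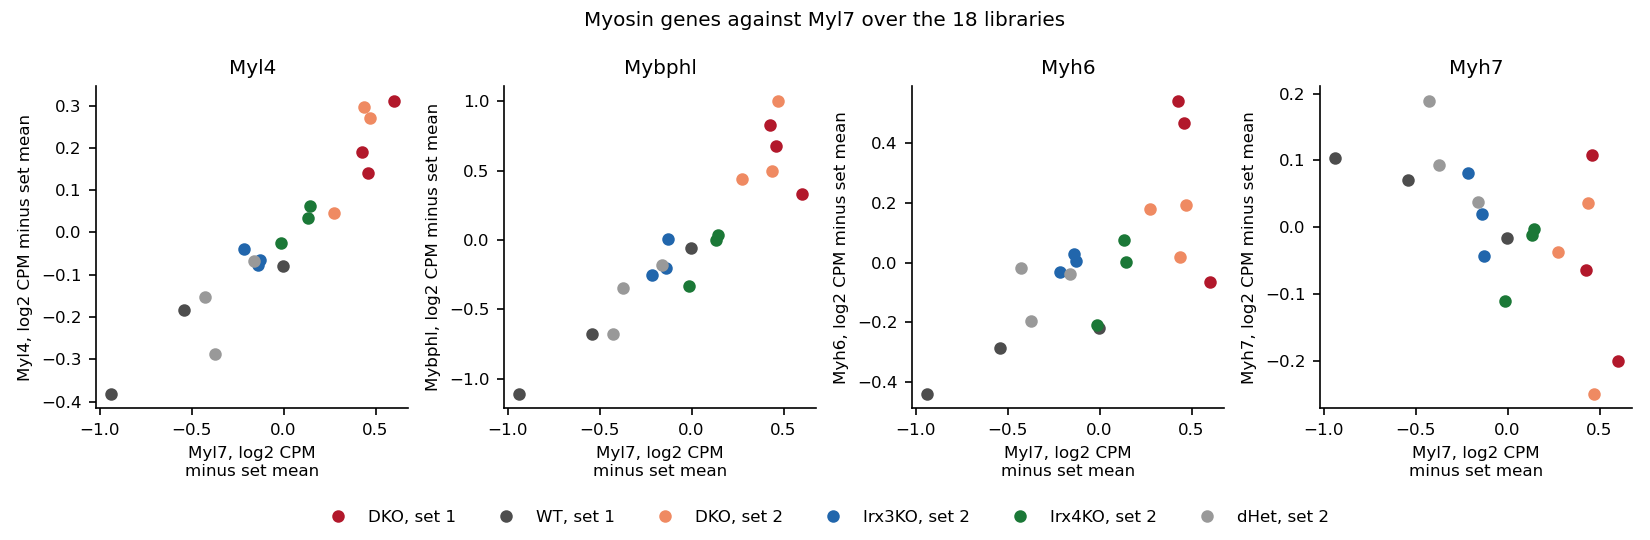
Log2 CPM of other myosin genes against that of Myl7 in the 18 libraries, with the mean of each set taken off and 1 point per library coloured by genotype. Myl4 and Mybphl follow Myl7 closely (r = 0.953 and 0.934), and Myh7 runs the other way (r = -0.63).

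The other myosin II chains and binding protein relatives were a list of 21 genes, of which 16 could be tested. In DKO against WT 1 rose and 0 fell, with a median log2 fold change of 0.13. The one that rose was Myl9, a regulatory light chain of smooth muscle and non-muscle cells. It was at 751, 988 and 873 CPM in DKO, against 626, 652 and 560 CPM in WT, without overlap, and its log2 fold change was 0.51 ± 0.11 (SE, n = 3 each; edgeR adjusted p = 0.03). In set 2, Myl12b, a non-muscle regulatory light chain, rose in the homozygous Irx4 mutants, with a log2 difference of 0.28 (edgeR adjusted p = 0.018).

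All 16 genes of the list of myosin kinases, phosphatase subunits and chaperones were tested. In DKO against WT 1 rose and 1 fell, with a median log2 fold change of 0.04. Mylk3, the cardiac myosin light chain kinase that phosphorylates Myl2, rose by a log2 fold change of 0.28 ± 0.068 (SE, n = 3 each; edgeR adjusted p = 0.047). Ppp1r12b, a regulatory subunit of the phosphatase that removes that phosphate, had a log2 fold change of -0.31 ± 0.067 (adjusted p = 0.027). Mylk3 also rose in the homozygous Irx4 mutants of set 2, with a log2 difference of 0.25 (edgeR adjusted p = 0.021).

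Of a list of 10 cardiac transcription factors known to act on myosin genes, 2 rose in DKO against WT and 0 fell. They were Tbx2, a repressor that is known to hold back chamber genes in the atrioventricular canal, with a log2 fold change of 0.96 (edgeR adjusted p = 0.0023), and Gata6, a zinc finger activator of heart genes, with 0.23 (adjusted p = 0.044). In set 2 Tbx2 also rose in DKO against Irx3KO (0.85, adjusted p = 0.011) and against dHet (1.05, adjusted p = 0.006), and Mef2c, an activator of muscle genes, had a log2 fold change of -0.46 in DKO against Irx3KO (adjusted p = 0.047).

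Markers of other cell types were examined because dissected ventricles could hold other tissue. Of 14 atrial markers other than the myosin genes, 2 rose and 0 fell in DKO against WT, with a median log2 fold change of 0.22. Tbx5, a T-box factor of the atria and left ventricle, rose by 0.43 ± 0.079 on the log2 scale (SE, n = 3 each; edgeR adjusted p = 0.012). Stard10, a lipid transfer protein, was at 50.2, 26.6 and 32.6 CPM in DKO and 17.3, 13.2 and 18.4 CPM in WT, with a log2 fold change of 1.16 ± 0.18 (adjusted p = 0.004). The summed level of the 14 genes was 3566 to 4577 CPM in DKO and 3083 to 3580 CPM in WT, and none of them was at 0 in all libraries. The DKO library with the most Myl7, DKO 7, had the lowest atrial sum of the 3 DKO libraries, and WT 2 had both the most Myl7 and the highest atrial sum of the WT libraries. Sln, an atrial regulator of the calcium pump, was at 4.08 to 5.96 CPM in DKO and 1.34 to 4.31 CPM in WT, and Nppa, the atrial natriuretic peptide, at 1240 to 1758 CPM in DKO and 974 to 1274 CPM in WT. Neither gene was called, and both overlapped between the groups. In set 2 the summed level was 3120 to 3587 CPM in DKO, 3105 to 3235 CPM in Irx3KO, 2973 to 3248 CPM in Irx4KO and 2906 to 3337 CPM in dHet. The part of atrial cells in the levels of Myl7, Mybphl, Myl4 and Myh6 was not tested.

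Of 9 ventricular markers, 1 rose and 3 fell in DKO against WT. Fhl2, a LIM protein of heart muscle, rose by 0.50 on the log2 scale (edgeR adjusted p = 0.037). Gja1, the main connexin of working myocardium, had a log2 fold change of -0.57 (adjusted p = 0.0029), Pln, the inhibitor of the calcium pump, -0.43 (adjusted p = 0.0049), and Mycn, a Myc family factor of the growing ventricular wall, -0.53 (adjusted p = 0.019). Their summed level was 3347 to 3551 CPM in DKO and 3825 to 4297 CPM in WT, without overlap. In set 2 it was 3256 to 3403 CPM in DKO, 3805 to 4237 CPM in Irx3KO, 3538 to 3679 CPM in Irx4KO and 3885 to 4284 CPM in dHet, so DKO was the lowest there as well. Gja1 and Pln also fell in DKO against Irx3KO, with log2 fold changes of -0.72 (edgeR adjusted p = 0.0015) and -0.40 (adjusted p = 0.016), and in DKO against dHet, with -0.61 (adjusted p = 0.0067) and -0.42 (adjusted p = 0.022).

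Of 10 cardiomyocyte markers of both chambers edgeR called none in DKO against WT. Their summed level was 22756 to 25147 CPM in DKO and 19665 to 21557 CPM in WT, so it was higher in every DKO library, and its part in the levels of the myosin genes was not tested. In set 2 the DKO sums, 19613 to 23036 CPM, overlapped those of the other genotypes. Of 14 skeletal muscle genes 9 could be tested and 2 rose, the fast troponins Tnni2 (log2 fold change 2.17, edgeR adjusted p = 0.011) and Tnnt3 (0.88, adjusted p = 0.018). The median log2 fold change of the 9 was 0.20. Myod1 and Pax7, defining factors, were at 0 in the DKO libraries of set 1 and were not called, but a gene left out of the test could not be called. No gene of this list was at 0 in all libraries. The skeletal sum was 254 to 389 CPM in DKO and 170 to 316 CPM in WT. In set 2 it was 213 to 396 CPM in DKO, 177 to 323 CPM in Irx3KO, 371 to 465 CPM in Irx4KO and 277 to 388 CPM in dHet. Tnni2 also rose there in DKO against Irx3KO (1.86, edgeR adjusted p = 0.046) and in the homozygous Irx4 mutants (1.55, adjusted p = 0.011). The part of skeletal muscle in the levels of the myosin genes was not tested. Of the 10 blood cell markers Lyz2 fell, with a log2 fold change of -1.49 (edgeR adjusted p = 0.023), and the sum was 2436 to 4212 CPM in DKO and 3321 to 6727 CPM in WT. In set 2 no atrial marker was called in DKO against any other genotype, and Stard10 rose in the homozygous Irx4 mutants, with a log2 difference of 0.67 (edgeR adjusted p = 0.02). No marker of smooth muscle, of endothelial and endocardial cells or of epicardial cells and fibroblasts was called in DKO against WT.

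**Figure D5:**
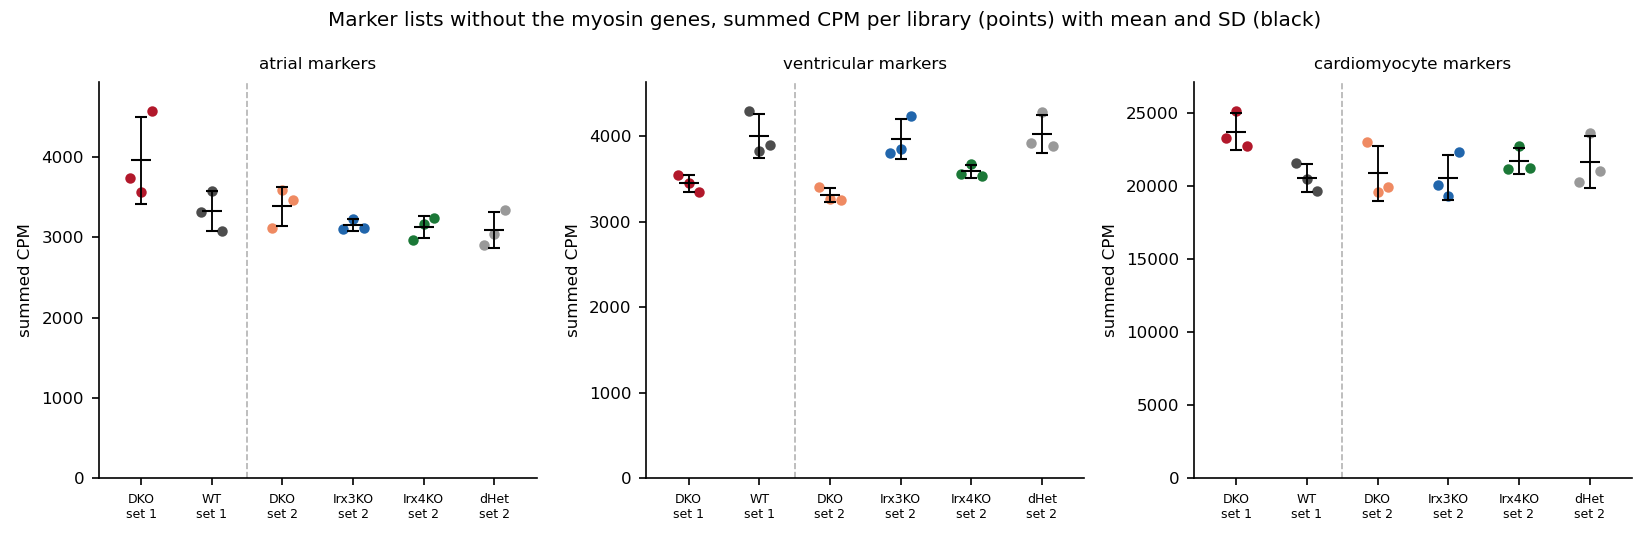
Summed CPM of the atrial, ventricular and cardiomyocyte marker lists, without the 10 myosin genes, with 1 point per library and the mean and SD of each genotype and set in black. The ventricular sum is lowest in DKO in both sets, at 3347 to 3551 CPM against 3825 to 4297 CPM in WT, while the atrial sums overlap, at 3566 to 4577 CPM in DKO and 3083 to 3580 CPM in WT.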

How the data were processed

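PolyA RNA of E14.5 mouse ventricles was measured in 18 libraries, grouped by the genotype in their titles. The authors deposited 1 table per library with estimated counts and TPM per transcript, which are kallisto tables per the file headers. Per the submitters' processing notes the tools and build include kallisto 0.42.2 and mm9. Neither the release of the transcripts nor how strand was handled is given in the sources used here. Of 88943 transcripts, 78030 (87.73%) matched GENCODE M21 (GRCm38) by identifier, and the rest held 6.42% to 6.77% of a library's counts and were left out. Coordinates are those of GRCm38 and not of the submitters' build.

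Estimated counts were summed per gene, rounded and tested with edgeR 4.0.16 in R 4.3.3: TMM, filterByExpr, robust quasi-likelihood F test, 1 fit with 6 groups of genotype by set, Benjamini-Hochberg adjustment over 16607 genes and a threshold of 0.05. "Called", "rose" and "fell" mean an adjusted p under 0.05. The common dispersion was 0.0207. Standard errors are the log2 fold change divided by the square root of F. CPM uses TMM factors. Ratios of TPM were compared by exact permutation tests (Python 3.11.15, SciPy 1.17.1) adjusted over 36 tests. The fit was tested on simulated data. Alternatives were RLE factors, DESeq2 1.42.0, other filters, counts rebuilt from TPM, 1 set only, no set term, a covariate for Y-linked genes, a replicate block and leaving out each library. The genes, lists and tests were chosen with earlier results of these data known. All 10 myosin genes are named, and from other lists up to 4 that passed. Sln, Nppa, Myod1 and Pax7 are named as well, although they were not called.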

Additional observations from a re-analysis of the deposited data

How the results depend on the processing

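Of the counts of myosin genes called, 262 recomputed under an alternative stayed within 1.5 times the main count and 30 did not. Of 2920 recomputed log2 fold changes, 39 gained a call and 38 lost one. The sign turned in 81, none of them past the threshold with either sign, and their reported sizes were at most 0.18. No ratio difference was called in the main test, and all 336 recomputed ones kept that result. For 3 libraries against 3 this was fixed beforehand, because the exact permutation p cannot go below 0.1. In DKO against WT the count of 4 became 0 with set 1 alone and 1 with no set term, and was 0 to 4 leaving out each library. In DKO against Irx3KO the count of 0 became 2 with set 2 alone, 3 with no set term, 2 in DESeq2 and 1 with the replicate block, and was 0 to 1 leaving out each library (WT 2 and WT 3). In DKO against dHet it became 3 with set 2 alone, 3 with no set term, 3 in DESeq2 and 1 with the replicate block, and was 0 to 2 (DKO 5, WT 2 and WT 3). In the homozygous Irx4 mutants it became 3 with set 2 alone, 1 with no set term, 1 with the covariate for Y-linked genes, 3 in DESeq2 and 2 with the replicate block, and was 0 to 1 (DKO 3, DKO 5, WT 2 and WT 3). Between the DKO sets the count of 5 became 3 with the Y-linked covariate and was 2 to 5 leaving out each library (DKO 3, DKO 4 and DKO 5). The other comparisons stayed at 0 throughout. The cause was not tested.

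Over all genes, DKO against WT called 239, against 603 in DESeq2, 144 with counts rebuilt from TPM, 105 with no set term and 16 with set 1 alone. DKO against Irx3KO called 63, against 204 in DESeq2, 29 from TPM, 36 with the Y-linked covariate, 284 with no set term, 179 with set 2 alone and 38 with the replicate block. DKO against Irx4KO called 4, against 26 in DESeq2, 1 from TPM and 12 with no set term. DKO against dHet called 15, against 173 in DESeq2, 317 with no set term, 173 with set 2 alone and 34 with the replicate block. The homozygous Irx4 mutants called 135, against 348 in DESeq2, 86 from TPM and 348 with set 2 alone. Irx3KO against Irx4KO called 48, against 212 in DESeq2, 26 from TPM, 23 with no set term, 145 with set 2 alone and 14 with the replicate block. Leaving out each library, the counts ran from 67 (without WT 1) to 576 (without DKO 5) in DKO against WT, with 124 without WT 3 and 527 without DKO 10. They ran from 15 (without DKO 4) to 143 (without DKO 5) against Irx3KO, from 1 to 6 against Irx4KO, and from 4 (without dHet 3) to 102 (without DKO 5) against dHet. In the homozygous Irx4 mutants they ran from 56 (without Irx3KO 1) to 313 (without DKO 5), in the homozygous Irx3 mutants from 2 to 19 (without dHet 4), and in Irx3KO against Irx4KO from 12 (without Irx4KO 3) to 119 (without DKO 5).

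No pairing by replicate number was seen over all genes tested: same-numbered libraries of set 2 correlated at -0.336 to 0.132 (15 pairs) and others at -0.249 to 0.342 (39 pairs). With the block, Myl7 passed as higher against Irx3KO (adjusted p = 0.029), against dHet (0.0088) and in the homozygous Irx4 mutants (0.0067). Myl1 also passed in the homozygous Irx4 mutants (0.041), but as lower. In the main fit the log2 difference of Myl1 there was -0.56 ± 0.19 (SE; edgeR adjusted p = 0.27). Set 1 groups share no number, so no block could be fitted there. With 3 libraries a group, an exact permutation test of a ratio cannot go below 0.1, and Mybphl and Myl1, at about 3 to 22 CPM, carry the largest standard errors of the 10 genes.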
